A study of Rattus norvegicus with 6 samples.

Results

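Principal cells are the sodium- and water-reabsorbing cells of the renal collecting duct. The genes described here are 9 genes that mark these cells, namely Scnn1a, Scnn1b, Scnn1g, Aqp2, Aqp3, Aqp4, Avpr2, Hsd11b2 and Nr3c2, out of 15645 genes with a symbol on the array. They were chosen by name, and every probe whose accession leads to one of them is reported, which gave 20 probes. The tissue was kidney cortex from 6 male Sprague-Dawley (Crl:CD(SD)) rats, purchased when 5 weeks old, and RNA was hybridised to single-colour Agilent arrays, 1 array per rat. In the dibromoethane group, 3 rats received 1,2-dibromoethane, a halogenated solvent and former fumigant, at 75 mg/kg/day for 4 weeks. The 3 control rats received corn oil for 4 weeks. No group carried a genetic change, and whole cortex, not isolated collecting ducts, was analysed.

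In principal cells the epithelial sodium channel ENaC, built from alpha, beta and gamma subunits, lets sodium in from the urine. The mineralocorticoid receptor drives this channel when aldosterone binds it, and the enzyme 11-beta-hydroxysteroid dehydrogenase type 2 keeps corticosterone away from the receptor. Vasopressin acts through its V2 receptor and cAMP to move aquaporin 2 water channels to the urinary surface, and aquaporins 3 and 4 let the water leave on the blood side.

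None of the 15 probes tested passed an adjusted p of 0.05, so no principal cell gene is called changed by 1,2-dibromoethane. The values nearest to a difference were those of the V2 receptor gene Avpr2 and of the beta and gamma channel subunit genes Scnn1b and Scnn1g, at 1.15- to 1.33-fold higher in treated rats. The water channel genes Aqp2 and Aqp3, the channel's alpha subunit gene Scnn1a, Hsd11b2 and Nr3c2 had overlapping groups on every tested probe. Of 15 tested genes of mineralocorticoid signalling and channel regulation, 3 (Sgk1, Tsc22d3 and Per1) had lower values in all 3 treated rats than in any control rat, and 2 (Edn1 and Hsd11b1) had higher ones. Such separation was found for 11.8% of all probes downward and 7.57% upward, and none of these 5 genes passed.

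Levels are log2 of the processed signal relative to the array's 75th percentile, so that 0 is the signal of the probe at that percentile. Differences are log2 fold changes of dibromoethane over control. Of the 61453 probes analysed, 59.2% to 67.8% per array were well above background, and 0 were saturated. The arrays lay on 3 slides. Slide 1 held dibromoethane replicate 2 and control replicates 1 and 2. Slide 2 held dibromoethane replicate 1 and control replicate 3, and slide 3 held dibromoethane replicate 3. Testing with limma required a probe to be well above background on every array of 1 group or of both. Of the 20 member probes 15 passed, and each of these was well above background on all 6 arrays. With 3 arrays per group, their number limits the precision of every difference. In whole tissue, fewer cells of a type and less RNA per cell cannot be told apart.

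The promoters of Avpr2, Scnn1b and Scnn1g are shown because these genes had the largest differences among the members, and that of Aqp2 because its signal differed little between the groups and it is the classical target of vasopressin. Each sequence is the 250 bases before the start of the gene in RefSeq, build GRCr8, 5′ to 3′ on the gene's strand. Capitals mark the half-site of the steroid hormone response element (AGAACA or its reverse complement TGTTCT) and the half-site of the cAMP response element (TGACG or CGTCA), searched on both strands. The 2 half-sites do not overlap each other in these sequences.
Avpr2 (chrX:156784889-156785138, + strand): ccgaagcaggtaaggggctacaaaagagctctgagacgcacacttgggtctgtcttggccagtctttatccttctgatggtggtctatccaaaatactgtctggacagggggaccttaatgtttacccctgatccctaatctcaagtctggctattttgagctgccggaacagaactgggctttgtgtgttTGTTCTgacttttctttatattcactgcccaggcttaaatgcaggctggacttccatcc
Scnn1b (chr1:185861126-185861375, + strand): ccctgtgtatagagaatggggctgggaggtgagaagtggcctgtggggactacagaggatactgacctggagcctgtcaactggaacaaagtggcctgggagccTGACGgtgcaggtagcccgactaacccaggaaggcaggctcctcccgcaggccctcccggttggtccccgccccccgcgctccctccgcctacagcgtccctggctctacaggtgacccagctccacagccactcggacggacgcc
Scnn1g (chr1:185735975-185736224, + strand): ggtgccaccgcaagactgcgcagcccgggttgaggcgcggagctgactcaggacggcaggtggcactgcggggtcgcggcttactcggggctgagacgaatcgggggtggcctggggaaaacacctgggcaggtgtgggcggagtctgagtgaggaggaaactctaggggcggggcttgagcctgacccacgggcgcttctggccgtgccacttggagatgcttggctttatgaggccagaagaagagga
Aqp2 (chr7:132590036-132590285, + strand): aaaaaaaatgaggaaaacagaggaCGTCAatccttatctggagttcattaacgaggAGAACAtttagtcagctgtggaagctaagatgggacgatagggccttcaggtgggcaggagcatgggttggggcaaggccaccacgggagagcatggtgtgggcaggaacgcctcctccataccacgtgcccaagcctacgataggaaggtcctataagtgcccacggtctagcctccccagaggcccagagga

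In RefSeq, promoter windows were at hand for 6 of the 9 genes, 7 windows in all, 2 of them of Aqp4. The hormone half-site was found in 2 of the 7 windows, those of Aqp2, 194 bases before the start, and of Avpr2, 59 bases before it. It was found in 17.5% of all 33469 promoter windows of this length. The cAMP half-site was found in those of Aqp2, 226 bases before the start, and of Scnn1b, 146 bases before it, against 18.2% of all windows. The full element TGACGTCA, which contains the half-site on both strands, was in 0 of the 7 windows and in 1.59% of all. Such matches describe the letters only. Scnn1g and Scnn1b are direct neighbours in the gene order of that assembly.

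Avpr2, the gene of the vasopressin V2 receptor, was measured by 2 probes. Probe A_43_P11944 gave levels of 0.73, 0.89 and 0.53 in dibromoethane rats, against 0.33, 0.22 and 0.40 in control rats. Probe A_64_P031890 gave 0.70, 0.68 and 0.42 in dibromoethane rats, against 0.24, 0.00 and 0.33 in control rats. On both probes every treated rat lay above every control rat. The means of A_43_P11944 were 0.72 ± 0.18 in dibromoethane rats and 0.32 ± 0.09 in control rats (SD, n = 3 each), a log2 difference of 0.40 (SE 0.11, 95% interval 0.12 to 0.68) or 1.32-fold. That of A_64_P031890 was 0.41 (SE 0.12, 95% interval 0.11 to 0.71). Neither passed (limma adjusted p = 0.361 for both, unadjusted p = 0.0123 and 0.0150). Within slide 1 the log2 difference was 0.62 and 0.56 on these probes, and within slide 2 it was 0.33 and 0.37, so that the sign was the same on both slides.

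The gamma subunit gene of the channel, Scnn1g, had 1 probe, A_44_P226658. Its levels were 2.44, 2.43 and 2.34 in dibromoethane rats, against 2.00, 1.98 and 2.24 in control rats. The groups did not overlap, although control replicate 3 lay close below the treated rats. The mean was 2.40 ± 0.06 in dibromoethane rats and 2.08 ± 0.14 in control rats (SD, n = 3 each), a log2 difference of 0.33 (SE 0.10, 95% interval 0.10 to 0.56, limma adjusted p = 0.361, unadjusted p = 0.0134). It was 0.44 within slide 1 and 0.20 within slide 2.

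The beta subunit gene, Scnn1b, had 2 probes. Probe A_64_P068913 gave 1.37, 1.61 and 1.51 in dibromoethane rats, against 1.03, 1.27 and 1.20 in control rats, with no overlap. The brighter probe, A_42_P817086, gave 4.28, 4.50 and 4.31 in dibromoethane rats, against 4.01, 4.31 and 4.15 in control rats. On this probe dibromoethane replicate 1 lay below control replicate 2, so the groups overlapped. The log2 difference was 0.33 (SE 0.10, 95% interval 0.08 to 0.58, limma adjusted p = 0.365) on the first probe and 0.21 (SE 0.11, 95% interval -0.06 to 0.47, limma adjusted p = 0.515) on the second. Within slide 1 these were 0.46 and 0.34, and within slide 2 they were 0.16 and 0.13.

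**Figure D1:**
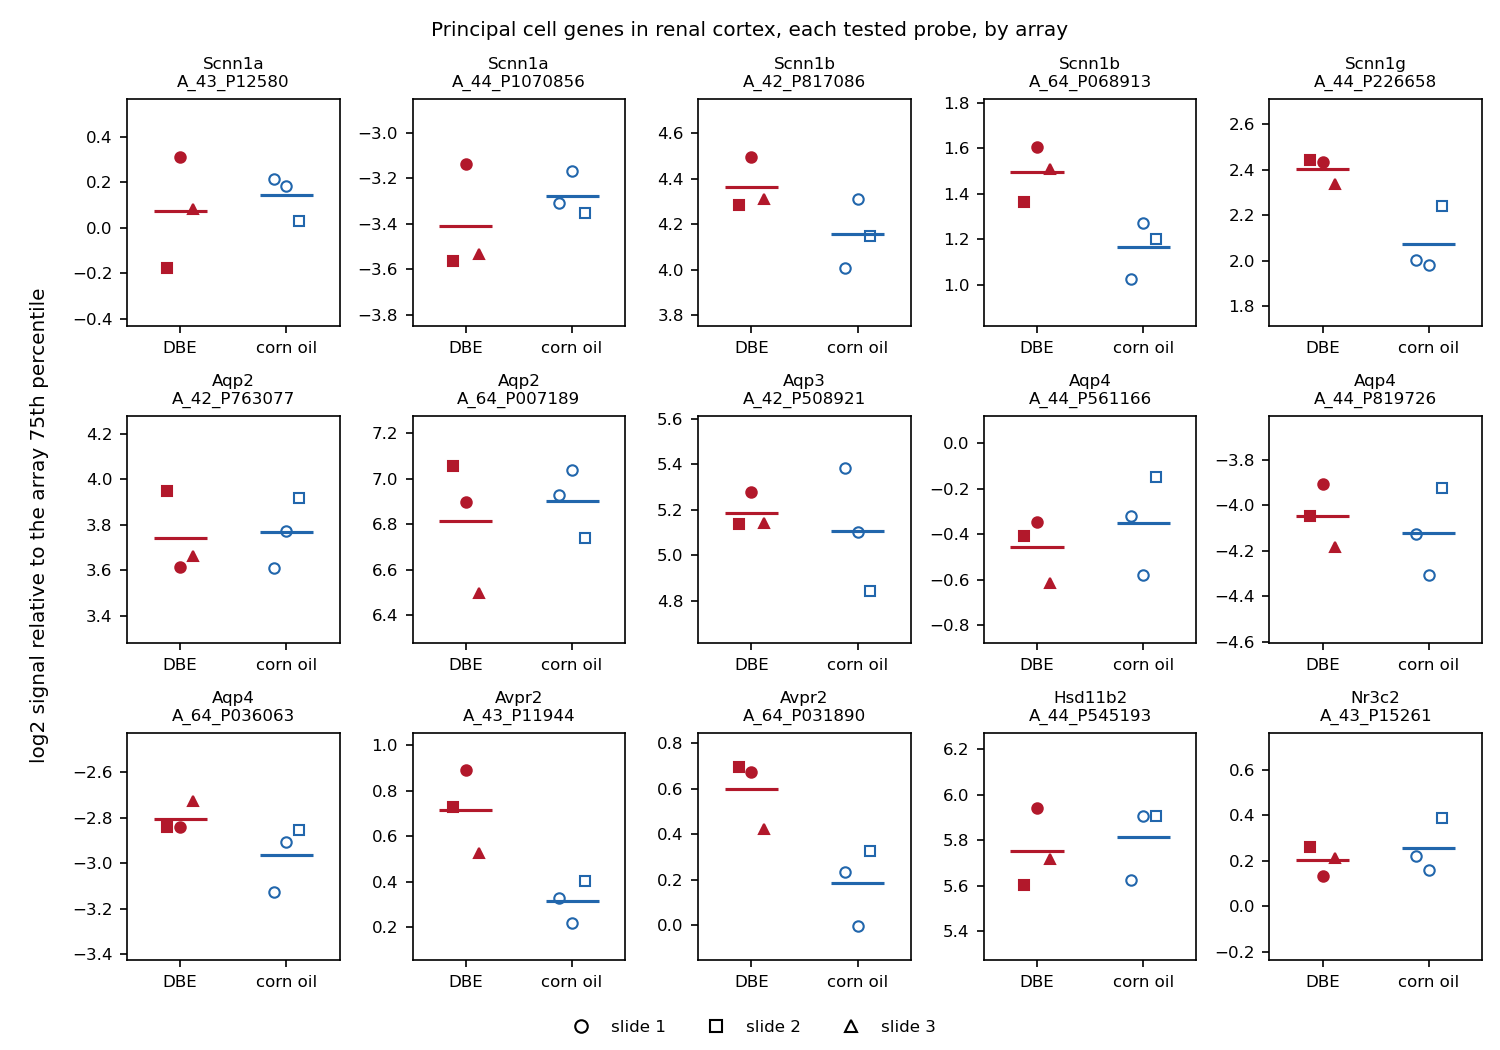
Level of each of the 15 tested probes of the 9 principal cell genes on each array, as log2 signal relative to the array's 75th percentile, for 1,2-dibromoethane rats (DBE, filled) and corn oil control rats (open); bars are group means and the marker shape gives the slide. The treated points of both Avpr2 probes, of Scnn1g, of 1 Scnn1b probe and of 1 Aqp4 probe lie above all control points, and on the other 10 probes the groups overlap.

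The alpha subunit gene, Scnn1a, the subunit needed for the channel to reach the surface in quantity, did not share these values. Probe A_43_P12580 gave -0.18, 0.31 and 0.08 in dibromoethane rats, against 0.22, 0.18 and 0.03 in control rats. Treated rats were both the lowest and the highest of the 6. The log2 difference was -0.07 (SE 0.14, 95% interval -0.41 to 0.26, limma adjusted p = 0.867). The dimmer probe A_44_P1070856 gave -0.14 (SE 0.13, 95% interval -0.46 to 0.19). Both were positive within slide 1 (0.11 and 0.10) and negative within slide 2 (-0.21 on each).

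Whether the subunits differed unequally was tested on the brightest probe of each, in a measure chosen after the values were seen, as the difference between 2 subunits on each array. The log2 difference of Scnn1b minus Scnn1a was 0.28 higher in dibromoethane rats than in control rats. Its groups did not overlap, and the two-sided exact permutation test gave p = 0.1, which is the smallest that 3 against 3 arrays allow. Scnn1g minus Scnn1a was 0.40 higher in dibromoethane rats, with overlapping groups (exact permutation p = 0.2). Scnn1g minus Scnn1b was 0.12 higher (exact permutation p = 0.5). Over these 3 pairs the Benjamini-Hochberg adjusted exact p was 0.3, 0.3 and 0.5. No values could have brought this test under 0.05, so it cannot decide whether the subunits responded unequally.

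Aqp2 encodes the water channel that vasopressin places in the urinary membrane. Its brighter probe, A_64_P007189, gave 7.05, 6.90 and 6.50 in dibromoethane rats, against 6.93, 7.04 and 6.74 in control rats. The lowest and the highest of the 6 rats were both treated ones. The log2 difference was -0.09 (SE 0.16, 95% interval -0.48 to 0.31, limma adjusted p = 0.862), and this interval spans 0.715- to 1.24-fold. The other probe, A_42_P763077, gave 3.95, 3.61 and 3.66 in dibromoethane rats, against 3.61, 3.77 and 3.92 in control rats, a log2 difference of -0.03 (SE 0.13). Quantile normalization turned the sign of both, so no direction is given for Aqp2.

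Aqp3, a water and glycerol channel of the blood-side membrane, had 1 probe. It gave 5.14, 5.28 and 5.14 in dibromoethane rats, against 5.38, 5.10 and 4.84 in control rats. Control rats spread on either side of the treated ones, and the log2 difference was 0.08 (SE 0.14, 95% interval -0.28 to 0.43, limma adjusted p = 0.862).

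Aqp4, the other blood-side water channel, had 6 probes, and those tested differed in sign. Of these, 3 were well above background on all 6 arrays. The brightest, A_44_P561166, gave -0.41, -0.35 and -0.61 in dibromoethane rats, against -0.32, -0.58 and -0.15 in control rats, a log2 difference of -0.11 (SE 0.14). Probe A_64_P036063 gave -2.84, -2.84 and -2.73 in dibromoethane rats, against -3.13, -2.91 and -2.86 in control rats. Its groups did not overlap, by a gap that is small beside the spread of the control rats, and the log2 difference was 0.16 (SE 0.10, 95% interval -0.07 to 0.39, limma adjusted p = 0.562). Probe A_44_P819726 gave 0.07 (SE 0.13). The remaining 3 probes were not tested. A_44_P448461 and A_44_P934428 were well above background on 0 of 6 arrays, and A_64_P018751 was so on 1 dibromoethane and 1 control array.

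Hsd11b2, the enzyme that inactivates corticosterone beside the mineralocorticoid receptor, gave 5.60, 5.94 and 5.72 in dibromoethane rats, against 5.63, 5.91 and 5.91 in control rats. The ranges nearly coincide, and the log2 difference was -0.06 (SE 0.13, 95% interval -0.37 to 0.25, limma adjusted p = 0.879), with a sign that quantile normalization turned. Nr3c2, the gene of the mineralocorticoid receptor itself, had 3 probes, of which A_43_P15261 was tested. It gave 0.26, 0.13 and 0.21 in dibromoethane rats, against 0.22, 0.16 and 0.39 in control rats. The log2 difference was -0.06 (SE 0.09, 95% interval -0.27 to 0.16, limma adjusted p = 0.835), the narrowest interval among the 15 probes. Probe A_44_P158441 was well above background on 0 of 6 arrays, and A_64_P014537 was so on 1 array of each group.

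**Figure D2:**
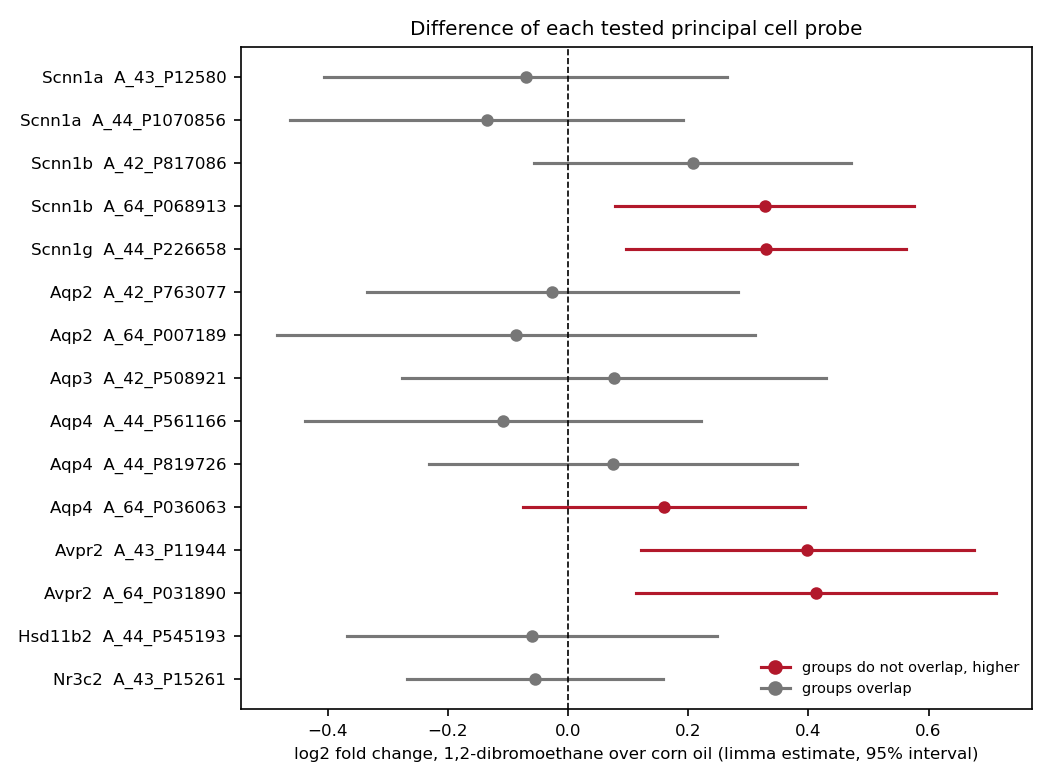
Log2 fold change of 1,2-dibromoethane over corn oil for each of the 15 tested probes (points) with its 95% interval from limma (lines); red marks probes whose groups do not overlap. The intervals of both Avpr2 probes, of Scnn1g and of 1 Scnn1b probe leave out 0 before adjustment, and none of the 15 passed after it (smallest adjusted p = 0.361).

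Across the 15 probes, 8 log2 differences were positive and 7 negative, with a range of -0.14 to 0.41 and a median of 0.07. Over all 37274 probes tested the median was -0.01. By the brightest probe of each gene the median of the 9 genes was -0.06, so its sign depends on how probes are counted. After adjustment limma called 0 of the 15, against 10 of all 37274 probes, or 0.0268% (0.0215% higher and 0.00537% lower). At an unadjusted p under 0.05 limma had 4 of the 15, all higher, against 4.69% of all probes for higher values, 6.58% for lower ones and 11.3% for either direction. These 4 are 2 probes of Avpr2 and 1 each of Scnn1b and Scnn1g, so they stand for 3 genes. The groups did not overlap on 5 of the 15, all higher, against 7.57% of all probes for higher values, 11.8% for lower ones and 19.4% for either direction. The members were chosen with earlier results known, and probes of 1 gene share their transcript, so these shares carry no test. The sign within slides was positive for 12 of 15 probes on slide 1 and for 9 of 15 on slide 2.

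Genes whose values, centred on the mean of the 6 arrays, differed least from Scnn1g were Smpx, Cbr1 and Agpat2, at a root mean square difference of 0.03, 0.04 and 0.04 on the log2 scale. For Aqp2 they were Smad7, Cyp2j3 and Rgs11, at 0.04, 0.04 and 0.05. The median over all probes of other named genes was 0.24 for Scnn1g and 0.23 for Aqp2. With 6 arrays such likeness is a description.

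Among 18 genes of mineralocorticoid signalling and channel regulation, 15 were tested, and limma called 0. At an unadjusted p under 0.05 there were 3 lower and 1 higher, against 6.58% and 4.69% of all probes. Sgk1, the kinase that keeps ENaC at the cell surface, gave 2.66, 2.27 and 2.16 in dibromoethane rats, against 3.49, 3.33 and 3.06 in control rats. Its log2 difference was -0.93 (SE 0.17, 95% interval -1.34 to -0.52, limma adjusted p = 0.232), with a gap between the groups that exceeds the SD of either. Tsc22d3, which encodes the glucocorticoid-induced leucine zipper, gave 1.75, 1.40 and 1.36 in dibromoethane rats, against 2.59, 2.25 and 2.29 in control rats. The log2 difference was -0.88 (SE 0.15, limma adjusted p = 0.217), and -0.51 on its other probe.

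Per1, a clock gene that aldosterone also induces in mouse collecting duct cells, is named here after its values were seen. It gave -2.83, -3.63 and -3.50 in dibromoethane rats, against -1.49, -1.56 and -2.38 in control rats. Control replicate 3 lay nearest to the treated rats, and the log2 difference was -1.51 (SE 0.31, limma adjusted p = 0.259), with -0.45 on the other probe. Within slide 1 the log2 difference was -1.14 for Sgk1, -1.02 for Tsc22d3 and -2.10 for Per1. Within slide 2 it was -0.41, -0.54 and -0.46, so it was smaller there for each of the 3. With slide as a fixed block the log2 difference was -0.82 for Sgk1 and -0.81 for Tsc22d3, and neither passed (limma adjusted p = 0.391 for both). Whether the difference itself varies between slides was not tested. The median of the 15 genes was -0.05. The 1 higher gene, Edn1, which encodes endothelin 1, an inhibitor of ENaC, had 0.37 (SE 0.14). It was well above background on 5 of 6 arrays, so it passed the filter through 1 group only. Its levels were -4.87, -4.39 and -4.40 in dibromoethane rats, against -4.95, -4.88 and -4.92 in control rats. The lowest signal well above background lay at -5.64 to -4.64, depending on the array, so Edn1 was near background. Aldosterone induces Edn1 and also Usp2, a deubiquitinase gene whose groups overlapped at -0.18 (SE 0.12). Hsd11b1, which regenerates corticosterone, had 0.24 (SE 0.12). Each of these is likewise named after its values were seen. The part of aldosterone in the values of this list was not tested. In whole cortex these values are not those of principal cells alone.

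**Figure D3:**
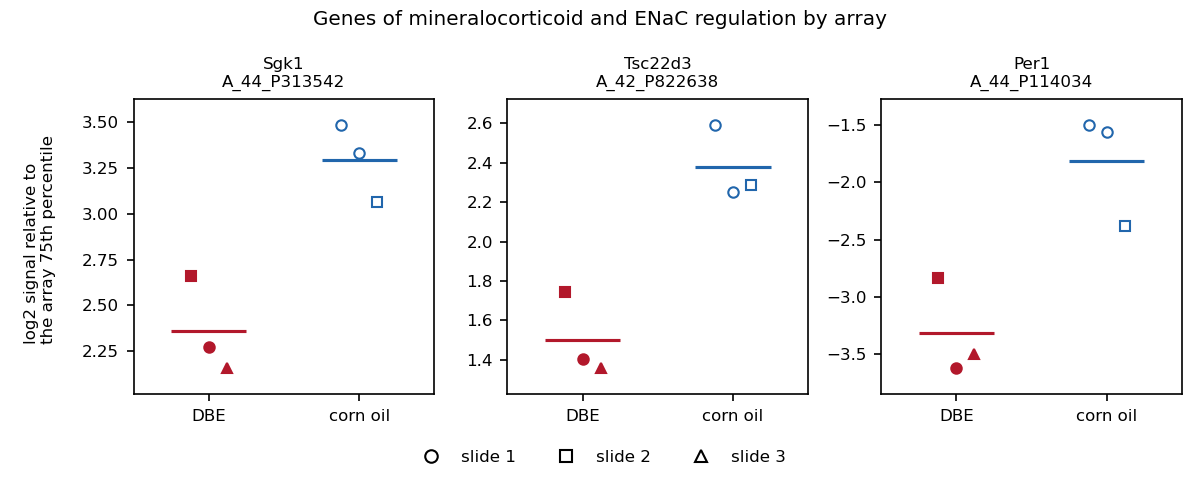
Level of Sgk1, Tsc22d3 and Per1 on each array, as log2 signal relative to the array's 75th percentile, for 1,2-dibromoethane rats (DBE, filled) and corn oil control rats (open), with bars at the group means and the slide as marker shape. All 3 treated rats lie below all 3 control rats for each gene, and the treated and control array of slide 2 differ less than those of slide 1.

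Of 22 genes of vasopressin signalling, cAMP and aquaporin 2 trafficking, 20 were tested, limma called 0, and 3 were lower and 1 higher at an unadjusted p under 0.05, against 6.58% and 4.69% of all probes (median log2 difference -0.05). The higher one was Avpr1a, the gene of the V1a vasopressin receptor. It gave -0.91, -1.35 and -1.41 in dibromoethane rats, against -1.76, -1.78 and -1.67 in control rats, a log2 difference of 0.51 (SE 0.15, limma adjusted p = 0.361). Prkar2a, a regulatory subunit of protein kinase A, had -0.33 (SE 0.09, limma adjusted p = 0.349). The other lower ones, named after their values were seen, were the phosphodiesterase gene Pde4d at -0.24 (SE 0.08) and the prostaglandin receptor gene Ptger3 at -0.40 (SE 0.13).

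Among 9 tested genes of a list drawn up for other principal cell transport limma called 0, with a median of -0.13. At an unadjusted p under 0.05 there were 1 higher and 2 lower, against 4.69% and 6.58% of all probes. Aqp1 is also in the proximal tubule list and Kcnj1 in that of the thick ascending limb. In whole cortex these counts are therefore not those of principal cells alone. Slc9a3r1, now named Nherf1, a scaffold of membrane transporters, had 0.27 (SE 0.09). Aqp1, the water channel of proximal tubule and thin limb, had -0.28 (SE 0.10), and Atp1b1, a sodium pump subunit gene named after its values were seen, had -0.19 (SE 0.07). Among 12 tested transcription factors of the collecting duct limma called 0, with a median of 0.10, and 2 were higher and 1 lower at an unadjusted p under 0.05, against the same shares of all probes. Tfcp2l1, which sets the balance of principal and intercalated cells in mouse, had -0.34 (SE 0.10, limma adjusted p = 0.361). Gata2, which drives Aqp2 transcription in mouse, had 0.25 (SE 0.09, limma adjusted p = 0.414), and Pax8, named after its values were seen, had 0.26 (SE 0.10).

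Markers of the tubule segments around the principal cells stood beside these values as follows. Of 8 further collecting duct markers tested, limma called 0, with 4 positive and a median of -0.05. For 3 of the 8 all treated rats lay below all control rats, against 11.8% of all probes. For 0 of the 8 they lay above, against 7.57%. Krt19, named after its values were seen, had the lowest log2 difference, -1.34 (SE 0.76), with overlapping groups. The keratin gene Krt7 had a log2 difference of -0.29 (SE 0.10) and Stc1, which encodes stanniocalcin 1, one of 0.67 (SE 0.28). Stc1 was at 0.10 within slide 1 and 1.34 within slide 2, and its difference was 0.41 without dibromoethane replicate 1. The summed signal of these 8, in units of the array's 75th percentile, was 168 to 195 in dibromoethane rats and 198 to 215 in control rats, which did not overlap. Most of that sum is Cdh16, the gene of kidney cadherin, and without it the sums overlapped, at 65.0 to 72.0 in dibromoethane rats and 70.9 to 76.0 in control rats. Of 12 intercalated cell markers limma called 0, with 6 positive and a median of -0.00. The anion exchanger gene Slc4a9 had 0.19 (SE 0.08) and the ammonium transporter gene Rhbg 0.24 (SE 0.11). Slc4a9 was at 0.32 within slide 1 and 0.01 within slide 2. The lowest of the 12 was Foxi1, named after its values were seen, at -0.23 (SE 0.12) with overlapping groups. The summed signal of the 12 was 188 to 191 in dibromoethane rats and 178 to 205 in control rats. By comparison, the sum over the 9 principal cell genes was 208 to 252 in dibromoethane rats and 223 to 254 in control rats, so that the ranges overlapped. Without Aqp2, the brightest of them, the sums overlapped too, at 113 to 133 in dibromoethane rats and 116 to 122 in control rats.

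Of 7 tested distal convoluted and connecting tubule markers limma called 0 (summed signal 195 to 257 in dibromoethane rats and 210 to 231 in control rats). The calcium-binding gene Calb1 had 0.26 (SE 0.17) and the calcium channel gene Trpv5 -0.18 (SE 0.16). Both depend on single arrays, with ranges of 0.14 to 0.42 for Calb1 and -0.32 to -0.07 for Trpv5 when 1 array was left out, and Trpv5 was at 0.02 within slide 1. Of 8 thick ascending limb markers limma called 0, with a median of -0.34, and the summed signal was 147 to 365 in dibromoethane rats and 329 to 353 in control rats. The claudin gene Cldn16 had -0.72 (SE 0.20) and Ptger3, also of this list, had the value given above. Umod, which defines that segment, was at 7.73, 8.36 and 6.94 in dibromoethane rats, against 8.23, 8.33 and 8.19 in control rats, so that the treated rats differed among themselves more than the controls did. Umod is also the brightest of this list. Without it the sums were 23.9 to 36.4 in dibromoethane rats and 30.7 to 37.3 in control rats, which overlapped.

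Of 10 inner medulla markers limma called 0, with a median of 0.11, and the summed signal was 26.7 to 33.5 in dibromoethane rats and 24.3 to 26.0 in control rats, which did not overlap. Without Cryab the sums overlapped, at 14.59 to 16.55 in dibromoethane rats and 14.45 to 15.96 in control rats. Cryab, a small heat shock protein gene, had 0.51 (SE 0.13) and the aldose reductase gene Akr1b1 0.50 (SE 0.14), both also expressed outside the medulla. Slc5a3, named after its values were seen, went the other way at -0.33 (SE 0.15). For 2 of the 10 all treated rats lay above all control rats, against 7.57% of all probes. For 1, Slc5a3, they lay below, against 11.8%. Slc14a2, the urea transporter gene that defines the inner medullary collecting duct, was at -2.94, -3.94 and -2.74 in dibromoethane rats, against -3.05, -3.31 and -2.99 in control rats, and the groups overlapped. Of 12 proximal tubule markers limma called 0, with 1 positive and a median of -0.15. At an unadjusted p under 0.05 there were 4 lower and 0 higher, against 6.58% and 4.69% of all probes. For 5 of the 12 all treated rats lay below all control rats, against 11.8% of all probes. The summed signal was 1965 to 2096 in dibromoethane rats and 2059 to 2421 in control rats. Without Kap, the brightest of them, the sums were 1575 to 1621 in dibromoethane rats and 1711 to 1860 in control rats. These did not overlap. The organic anion transporter gene Slc22a6 had -0.28 (SE 0.07) and Gatm, an enzyme gene of creatine synthesis, -0.49 (SE 0.13). Slc34a1, the phosphate transporter gene that defines the proximal tubule, was well above background on all 6 arrays. It was at 8.17 to 8.23 in dibromoethane rats and 8.26 to 8.30 in control rats, which did not overlap. Its log2 difference was -0.08 (SE 0.06). The part of these neighbouring segments in the values of the principal cell genes was not tested.

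**Figure D4:**
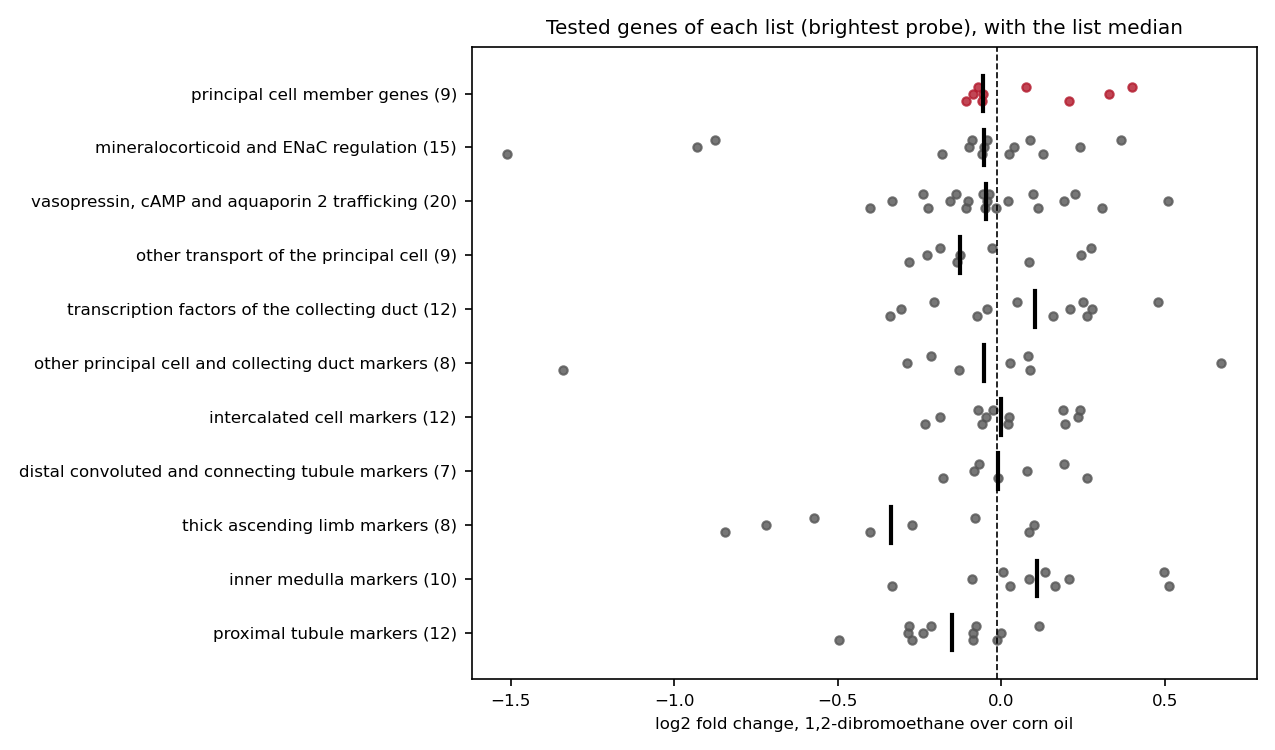
Log2 fold change of 1,2-dibromoethane over corn oil for the brightest probe of each tested gene (points), by list, with the number of genes tested in brackets; thick bars are list medians and the dashed line is the median of all 37274 probes, -0.01. The 9 principal cell genes lie between -0.11 and 0.40, and in the list of mineralocorticoid and ENaC regulation Per1, Sgk1 and Tsc22d3 lie apart at the low end.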

How the data were processed

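The renal cortex of 6 rats, 3 given 1,2-dibromoethane and 3 corn oil, was measured on 1 array per animal, per the labels' protocols. The authors deposited scanner tables that hold intensity values per spot, and the file headers name Feature Extraction 10.7.1.1 and array design 045522. The submitters' processing notes name version 10.7. The scanner program had already subtracted background from the processed signal, per the file headers. A series table that the authors deposited also holds intensity values; it equals that signal over each array's 75th percentile (largest log2 deviation 0.0154), on a linear scale, not centred by gene.

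Of 62976 spots, 1439 controls and 84 spike-in probes were left out, and outlier spots (1 to 11 per array) were set to missing. Accessions were matched to RefSeq (GRCr8), which named 28206 of 61453 probes (45.9%). From each log2 processed signal the 75th percentile of its array was subtracted. The groups were compared probe by probe with limma 3.58.1 (R 4.3.3; lmFit and eBayes, no covariates, two-sided) over 37274 probes, with Benjamini-Hochberg adjustment over all of them. The test was checked on simulated data. Lists use the brightest probe of a gene.

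The members and lists were chosen with earlier results of these data known. All members are named. From each list the 2 genes with the smallest p are named where none passed. Defining markers of a segment (Umod, Slc14a2, Slc34a1) stand beside them, as do genes said to be named after their values were seen. For Aqp2 and Scnn1g the 3 genes of most similar values are named. The 21 alternatives cover scaling, background, filter, choice of probe, slide, scan day, replicate number, variance model, array weights, the deposited table and leaving out each array. Sums of a list without its brightest gene were added after the data were seen. The files used here hold no mean spot signal, so the normexp alternative (offset 50) used the median spot signal and the median background.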

Additional observations from a re-analysis of the deposited data

How the results depend on the processing

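In none of the 21 alternatives did limma call a member probe (0 of 15 in each but for the tests of the brightest or the mean of a gene's probes, which have 9 entries, and that without a filter, which has 20). Of 303 member values under an alternative, 287 kept their sign and 16 on 8 probes did not, while Avpr2, Scnn1g and Scnn1b kept theirs in every one. Many of the 303 could not differ from the reported value. The filters, the brightest probe, scan day, replicate number and the variance model leave a probe's log2 difference as it is. The deposited table holds the same signal, and the 2 slide fits gave equal values. The share that kept its sign is therefore no measure of stability. The log2 difference of Scnn1g ranged over 0.28 to 0.41 and that of Avpr2 probe A_43_P11944 over 0.31 to 0.49 when 1 array was left out. The largest adjusted p was 0.797 for both, and the smallest 0.248 and 0.241.

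Signs turned with quantile normalization for Aqp2 (A_42_P763077 0.0165, A_64_P007189 0.0073) and Hsd11b2 (0.0216), with array weights for A_42_P763077 (0.0353), with slide as a fixed block or only slides with both groups for A_64_P007189 (0.0846), and for Aqp4 when the probes of a gene were averaged (0.0422). Leaving out 1 array gave ranges of -0.19 to 0.0540 for Scnn1a A_43_P12580, -0.13 to 0.0494 and -0.21 to 0.0724 for the Aqp2 probes, -0.0560 to 0.21 for Aqp3, -0.0182 to 0.17 for Aqp4 A_44_P819726, -0.15 to 0.0156 for Hsd11b2, -0.10 to 0.0107 for Nr3c2 and -0.0038 to 0.2080 for Scnn1g minus Scnn1b. None of the 2 genes of smallest p from each list, nor Per1, was called under any alternative.

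The count of changed probes over the whole array, 10 as reported, was 6 with normexp, 1 without a filter, 2 with scan day as a fixed block, 20 with trend and robust, and 0 with slide as a fixed block or on only slides with both groups, which leave 2 residual degrees of freedom (4378 probes had an unadjusted p under 0.05 in limma). Leaving out 1 array gave 1 to 12, with 1 without dibromoethane replicate 1 or control replicate 2, 2 without dibromoethane replicate 2 and 4 without control replicate 1. With the replicate block, also at 2 residual degrees of freedom, it was 0 (4452 by limma's unadjusted p). Whether the replicate numbers pair the rats cannot be told from the arrays. The deviations from the group means of same-numbered arrays correlated across probes at -0.20, 0.24 and 0.13. Dibromoethane replicates 2 and 3 correlated best with the control of their own number. Dibromoethane replicate 1 correlated best with control replicate 3, which shares its slide, as control replicate 2 does with dibromoethane replicate 2. With 3 arrays per group, centring ties these deviations to each other. The lower counts in these fits have several possible sources. Apart from degrees of freedom and the number of probes tested, the cause was not tested. The 5 untested member probes of Aqp4 and Nr3c2 near or below background allow no statement on a difference.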
